A study of Mus musculus with 12 samples.

Results

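The genes described here are the 38 transcripts of plasma proteins that carry out clotting, clot dissolution and complement attack, read from the 24062 gene rows of each of 12 RNA-seq count libraries. They were listed by name, with earlier results of these data known, and they were grouped into 10 steps of the cascades. Livers came from male FVB mice of the MYC-ON model, in which LAP-tTA drives a TRE-linked human MYC transgene in hepatocytes once doxycycline is withdrawn, as it was at birth. Tumors came from HCC53N, a line of mouse liver cancer cells derived from tumors with Alb-Cre deletion of p53 and a G12V Nras. The cells were implanted subcutaneously in NOD SCID hosts, which lack mature B and T lymphocytes. The paper describes these hosts as female and adds that repeats in males showed no differences. The sample labels also describe the tumor cells as MYC ON, and whether HCC53N carries the transgene was not settled here. In each model 3 mice received a complete control diet and 3 received a diet without tryptophan (No-Trp) for 21 days. The control livers are mice 101, 102 and 103, the No-Trp livers 105, 107 and 108, the control xenografts 40, 41 and 43, and the No-Trp xenografts 35, 36 and 37. The 2 models differ in sex as described, strain, host, site and driver at once, so these cannot be told apart in any comparison of livers with xenografts, and HCC53N is 1 cell line.

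Most clotting and complement proteins of the blood are made by hepatocytes. Clotting runs through a chain of proteases, several of which need vitamin K-dependent carboxylation, to thrombin, which turns fibrinogen into fibrin. Antithrombin, heparin cofactor II and the protein C system hold the chain in check, and plasmin dissolves the clot. Complement is started by antibody, by lectins that bind sugars or by spontaneous turnover of C3, and all these routes meet at the cleavage of C3 and end in a pore built from C5b, C6, C7, C8 and C9.

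Depth was 14660963 to 26085349 reads on genes per library. Levels are given as CPM (read counts scaled to a common library size), with TMM scaling over all 12 libraries. A gene was called when its p in the edgeR quasi-likelihood test, after Benjamini-Hochberg adjustment over every gene tested, did not exceed 0.05 and its log2 fold change was 1 or more in size. Errors of log2 fold changes are standard errors (SE) with 3 mice a group, and nothing in the labels ties mice of different groups to each other. In the livers the 18 hepatocyte markers summed to 19239 to 61167 CPM in the controls and to 77332 to 175055 CPM in the No-Trp group. In the xenografts they summed to 1814 to 3916 CPM and 1791 to 3196 CPM, while 6 cholangiocyte markers, led by Spp1, summed to 2973 to 10765 CPM there against 87.1 to 167 CPM in the livers.

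In the MYC-ON livers 7 of the 38 transcripts rose on the No-Trp diet and none fell. These 7 were F12, Kng1, F2, F5, Ahsg, C3 and C4bp. The share called higher was 18.4%, against 9.28% of all 14122 genes tested, and the share called lower was 0 against 7.27%. The median log2 fold change of the 38 was 1.13, beside -0.003 for all genes tested, and 33 of the 38 were above 0. The count depended on the tool. An unadjusted p under 0.05 was found for 20 of the 38, the 7 called among them, and for 5901 of all 14122 genes. DESeq2 called 16 of the 38 higher. DESeq2 called 8.72% of 18881 genes higher, a larger set without the edgeR filter on low counts. It gave no adjusted p for Mbl1, Mbl2, C6 and C9, which it therefore could not call in either direction. In the xenografts no member was called in either direction among 35 tested, where 0.245% of 14704 genes were called higher and 0.116% lower. There the median log2 fold change of the members was -0.002 (-0.004 for all genes tested). An unadjusted p under 0.05 was found for 2483 of all 14704 genes and for 5 of the 35 members. DESeq2 called 2 of them higher, C3 and C4b, where it called 1.28% of 19524 genes higher, again without that filter.

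One control liver stands apart for these 38 genes and sets much of their spread in the livers. Mouse 102 had the highest level among the 3 controls for all 38 genes. Its sums of hepatocyte markers (61167 CPM against 23673 and 19239 in the other controls) and of erythroid markers (587 CPM against 58.7 and 389) were also the highest of the controls. The ratio of the highest to the lowest control had a median of 3.19 over the 38 genes with mouse 102, and of 1.24 between mice 101 and 103. Control 101 was unusual in another way, with 12.1% of its reads on the ribosomal RNA gene Rn45s, against 2.22% in 102 and 0.587% in 103. With Rn45s left out, 7 members were again called higher, beside 1305 of 14043 genes tested. Without mouse 102, 25 members were called higher and 1 lower (C9), against 13.6% and 8.66% of all genes in the same fit. Leaving out control 101 or control 103 instead left no member called, as did leaving out No-Trp mouse 105. Calls fell over all genes too in these fits, to 178 of 14238, 7 of 14240 and 298 of 14441 called higher. With all mice it was 1311 of 14122. Kng1 alone was called without mouse 107, where 660 of 14344 genes were called higher. Ahsg, F12, F2 and Kng1 were called without mouse 108, where 1205 of 14432 genes were. Libraries 101, 108, 41 and 43 carry a mark of resubmission. With that mark as a covariate 11 members were called higher in the livers, none in the xenografts and 7 by the interaction. In the same order, 1399 of 14122, 3 of 14704 and 1087 of 15472 genes were called higher, so few calls were possible in the xenografts. Among the No-Trp livers, mouse 107 was highest for 36 of the 38 genes and mouse 108 lowest for 35. The same mouse 107 had the highest hepatocyte sum (175055 CPM) and the lowest sum of 8 proliferation markers (90.7 CPM, against 403 and 405 in the other No-Trp livers and 1245 to 1443 in the controls). Of the hepatocyte markers, 11 of 18 rose and none fell in the livers, and of the proliferation markers 6 of 8 fell. Fewer hepatocytes and less RNA per hepatocyte cannot be told apart in these bulk samples, and the part of hepatocyte share in the results below was not tested.

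**Figure D1:**
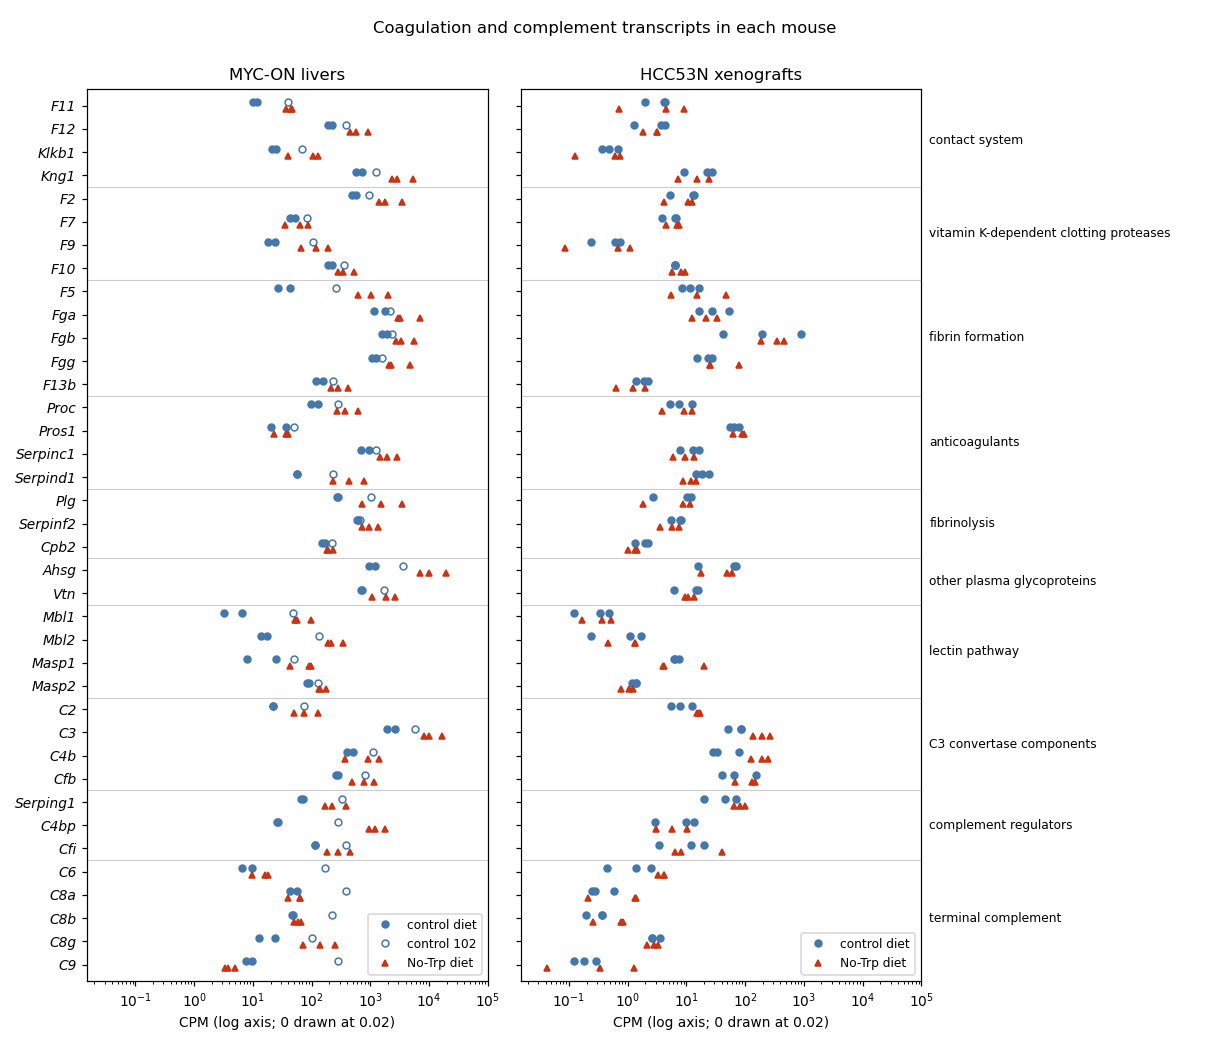
Level of each of the 38 transcripts in each mouse, in CPM on a log axis, in MYC-ON livers (left) and HCC53N xenografts (right), grouped by cascade step. Circles are mice on the control diet and triangles mice on the No-Trp diet. The open circle, control liver 102, lies at or above the other control livers in every row, and for C6, C8a, C8b and C9 it lies above the No-Trp livers too.

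Sequence upstream of a few of these genes is shown first, because the members that moved apart from each other can then be read beside what precedes their start. Promoters were available from RefSeq (GRCm38.p6) for 29 of the 38 genes. The letters GTTAAT, part of the site of the hepatocyte factor HNF1, stood on either strand in the 250 bases before the start of 7 of the 29 (24.1%) and of 6.43% of 32851 promoters. The letters TTGCNNAA, from the site of C/EBP factors, stood on either strand in 8 of the 29 (27.6%) and in 9.56% of all. The core AAGTCCA of HNF4 stood in 1 of the 29, F10 (3.45%, against 3.36% of all), and the E-box CACGTG, the site of MYC and MAX, in none, against 6.02% of all. None of the 4 motifs contains another, and a match is a description of letters, not a binding site.
The sequences below end at or just before the annotated transcript start and carry HNF1 and C/EBP letters in capitals. Fgb holds both, C4bp is the gene with the largest rise in the livers, C3 is the central complement protein, and C9 is the member with the most negative change.
Fgb, chr3:83049864-83050013, minus strand: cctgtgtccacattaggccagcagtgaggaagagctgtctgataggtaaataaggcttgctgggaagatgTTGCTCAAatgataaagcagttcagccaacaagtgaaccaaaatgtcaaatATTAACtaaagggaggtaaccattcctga
C4bp, chr1:130661633-130661782, minus strand: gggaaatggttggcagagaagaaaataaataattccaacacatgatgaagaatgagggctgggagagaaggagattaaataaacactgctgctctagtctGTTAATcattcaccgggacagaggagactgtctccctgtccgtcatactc
C3, chr17:57228137-57228286, minus strand: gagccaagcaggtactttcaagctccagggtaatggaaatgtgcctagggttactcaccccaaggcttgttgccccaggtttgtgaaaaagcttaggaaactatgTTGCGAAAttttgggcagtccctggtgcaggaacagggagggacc
C9, chr15:6445177-6445326, plus strand: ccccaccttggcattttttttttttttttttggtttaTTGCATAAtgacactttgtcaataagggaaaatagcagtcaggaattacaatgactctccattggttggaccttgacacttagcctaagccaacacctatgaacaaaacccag
C3, which rose in the livers on the No-Trp diet, and C9, which had the most negative change, both carry the C/EBP letters in this window, and C4bp carries only the HNF1 letters. Of the 7 genes that rose, F12, F2 and F5 had none of the 4 motifs, Ahsg and C3 had the C/EBP letters, C4bp had the HNF1 letters, and no promoter was available for Kng1.

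Because the diet removes an amino acid, in-frame TGG codons, the only codon of tryptophan, were counted in the longest coding sequence of each gene (GENCODE M21). The 38 genes held a median of 15.3 TGG codons per 1000 codons, from 5.80 to 29.1, and 27 of them were above the median of 10.95 of 12989 genes tested in the livers. Across the 38 genes the Spearman rank correlation of this frequency with the liver log2 fold change was -0.05, and across the 12989 genes it was 0.10. Genes share mice and libraries, so both are descriptions without a test. Of the 7 genes that rose, F12, F2, C4bp and F5 held 26.8, 25.9, 17.1 and 16.03 TGG codons per 1000. The others, C3, Kng1 and Ahsg, held 10.2, 9.08 and 5.80, the last being the lowest of the 38. C9 held 7.13.

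The contact system starts clotting on charged surfaces: factor XII and plasma kallikrein activate each other on the scaffold of high-molecular-weight kininogen, and factor XIIa activates factor XI. In the livers 2 of its 4 genes rose, Kng1 and F12, and none fell. Kng1, the kininogen gene, stood at 727, 1252 and 574 CPM in controls 101, 102 and 103, and 2837, 5375 and 2318 CPM in No-Trp livers 105, 107 and 108. All No-Trp livers were above all controls, and the log2 fold change was 2.07 ± 0.46 (adjusted p = 0.0251, edgeR). Kng1 kept its call in 11 of 14 alternative settings and lost it without control 101, control 103 or No-Trp mouse 105, with adjusted p of 0.0768, 0.1 and 0.0606. F12, which encodes factor XII, rose by 1.30 ± 0.36 on the log2 scale (adjusted p = 0.041, edgeR). F11, factor XI, was the member of the step with the smallest change, at 11.9, 40 and 10.2 CPM in controls 101, 102 and 103, and 45, 47.3 and 36.3 CPM in No-Trp livers 105, 107 and 108. Control 102 lay inside the No-Trp range while the other controls lay below it, and the change of 1.08 ± 0.51 was not called (adjusted p = 0.156, edgeR). Klkb1, prekallikrein, differed by 1.28 ± 0.59 and was not called. F11 and Klkb1 are neighbours on chromosome 8, 4.7 kb apart, and 43.2% of the exon length of Klkb1 is shared with a gene model that the files do not count.

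In the xenografts the same 4 genes differed between diets by -0.34 ± 0.52 for Kng1 to 0.40 ± 0.76 for F11, and none was called. Kng1 was measured at 27.1, 9.11 and 22.3 CPM in control xenografts 40, 41 and 43, and 24.8, 15.3 and 7.11 CPM in No-Trp xenografts 35, 36 and 37. The lowest tumor of each diet, 41 and 37, lay well below the other tumors of its group. F11 read 4.16, 4.4 and 2.0 CPM in control xenografts 40, 41 and 43, and 9.08, 4.53 and 0.719 CPM in No-Trp xenografts 35, 36 and 37, and the groups overlapped. Kng1 was 1 of 2 members whose diet difference was called as unlike between the models: the liver change minus the xenograft change was 2.37 ± 0.73 on the log2 scale (adjusted p = 0.048, edgeR interaction term). The interaction called 2 of the 38 members higher in the livers (5.26%), against 6.01% of 15472 genes tested, and none lower, against 6.7%. Without control liver 102 it called 11 higher, against 8.75% of all genes in that fit.

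Factors VII, IX and X and prothrombin are the proteases whose glutamate residues are carboxylated with vitamin K before secretion. Of the 4 genes, 1 rose in the livers. F2, prothrombin, the precursor of thrombin, was found at 562, 947 and 481 CPM in controls 101, 102 and 103, and 1758, 3461 and 1402 CPM in No-Trp livers 105, 107 and 108. The groups did not overlap, and the log2 fold change was 1.76 ± 0.44 (adjusted p = 0.0312, edgeR). F7, which starts clotting together with tissue factor, stood at 52.8, 83.2 and 42.2 CPM in controls 101, 102 and 103, and 62.5, 86.8 and 35.8 CPM in No-Trp livers 105, 107 and 108. Its groups covered the same range, its change was 0.08 ± 0.36, and it changed sign with library totals and without control 103 or No-Trp mouse 107. F9 and F10 differed by 1.42 ± 0.72 and 0.63 ± 0.32 and were not called. F7 and F10 lie 1.5 kb apart on chromosome 8, with changes of 0.08 and 0.63.

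None of the 4 proteases was called in the xenografts, where their differences ran from -0.24 for F2 to 0.26 for F10. F2 was measured at 13.5, 5.2 and 13 CPM in control xenografts 40, 41 and 43, and 12.4, 10.8 and 4.14 CPM in No-Trp xenografts 35, 36 and 37. F7 read 3.91, 6.71 and 6.43 CPM in control xenografts 40, 41 and 43, and 7.62, 6.82 and 4.53 CPM in No-Trp xenografts 35, 36 and 37, so that the xenograft levels were 6.46% to 12.6% of the mean of the 6 livers, while those of F2 were 0.289% to 0.944%.

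Fibrinogen is a dimer of 3 chains encoded next to each other on chromosome 3 (Fgg at 83007724 to 83015049, Fga at 83026076 to 83033627 and Fgb at 83040141 to 83049863), factor V is the cofactor of the prothrombin-cleaving complex, and factor XIII cross-links fibrin. Only F5 of these 5 genes was called. F5 was found at 26.5, 264 and 42.2 CPM in controls 101, 102 and 103, and 1040.4, 2021 and 609 CPM in No-Trp livers 105, 107 and 108. Every No-Trp liver was above every control, control 102 was several times above the other controls, and the change was 3.49 ± 0.98 (adjusted p = 0.0422, edgeR). Without control 102 it was 5.16 (adjusted p = 0.00324). The call on F5 was lost in 7 of 14 alternatives. The 3 fibrinogen chains moved side by side but missed the threshold narrowly, with 1.39 ± 0.45 for Fga (adjusted p = 0.0579), 1.23 ± 0.40 for Fgg (0.0579) and 1.04 ± 0.37 for Fgb (0.0737), all by edgeR. No No-Trp liver overlapped a control for any of the 3, and DESeq2 called all 3 higher. F13b, the carrier subunit of factor XIII, had the smallest change of the step, at 121, 228 and 158 CPM in controls 101, 102 and 103, and 282, 413 and 216 CPM in No-Trp livers 105, 107 and 108. No-Trp mouse 108 fell below control 102, and the change of 0.87 ± 0.32 was not called.

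In the xenografts Fgb varied more than its neighbours. Fgb stood at 888, 193 and 41.9 CPM in control xenografts 40, 41 and 43, and 351, 459 and 190.0 CPM in No-Trp xenografts 35, 36 and 37. Xenograft 40 was above every other tumor and xenograft 43 below, both on the control diet. Fga and Fgg, its neighbours, stayed between 12.3 and 53.1 CPM and between 15.1 and 77.4 CPM. Per kilobase of exon, Fgb averaged 98.3 CPM in the control xenografts against 10.6 for Fga and 10.5 for Fgg, whereas in the control livers the 3 chains averaged 505, 565 and 618. Between diets Fgb differed by -0.20 ± 0.94, Fga by -0.54 ± 0.49 and Fgg by 0.93 ± 0.48, and none was called. F5 was measured at 16.3, 11.5 and 8.43 CPM in control xenografts 40, 41 and 43, and 47.3, 14.9 and 5.46 CPM in No-Trp xenografts 35, 36 and 37, and F13b at 2.2, 1.4 and 1.88 CPM in control xenografts 40, 41 and 43, and 2.01, 1.25 and 0.634 CPM in No-Trp xenografts 35, 36 and 37. Both groups overlapped for each of them.

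The anticoagulants include antithrombin (Serpinc1), heparin cofactor II (Serpind1), protein C (Proc) and its cofactor protein S (Pros1). None of the 4 was called in the livers, although Serpinc1 (1.12 ± 0.34, adjusted p = 0.0513) and Proc (1.36 ± 0.46, adjusted p = 0.0679) came close by edgeR. Of the exon length of Serpinc1, 34.4% overlaps Zbtb37 on the other strand, so without a known strand setting its counts are uncertain. Serpind1 read 57.6, 235 and 56 CPM in controls 101, 102 and 103, and 439.9, 788 and 231 CPM in No-Trp livers 105, 107 and 108. No-Trp mouse 108 was just under control 102, and the change of 2.09 ± 0.70 was not called (adjusted p = 0.0675, edgeR). Pros1 was found at 20.2, 50.6 and 37.1 CPM in controls 101, 102 and 103, and 36, 40.3 and 23.4 CPM in No-Trp livers 105, 107 and 108. Protein S is also made outside hepatocytes, and its groups covered one another (-0.09 ± 0.35).

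In the xenografts Serpind1 stood at 18.6, 14.5 and 24 CPM in control xenografts 40, 41 and 43, and 8.79, 14.3 and 11.9 CPM in No-Trp xenografts 35, 36 and 37. All No-Trp tumors were below all control tumors, with a change of -0.72 ± 0.27 that was not called (adjusted p = 0.23, edgeR). Serpind1 was the other gene whose diet difference was called as unlike between the models, by 2.78 ± 0.80 (adjusted p = 0.0396, edgeR interaction term). Pros1 was measured at 63.6, 79.9 and 55.1 CPM in control xenografts 40, 41 and 43, and 97, 62.4 and 87.1 CPM in No-Trp xenografts 35, 36 and 37, the one member with more transcript in the tumors than in the livers on both diets.

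Plasminogen (Plg) is the precursor of plasmin, alpha-2-antiplasmin (Serpinf2) inhibits plasmin, and the carboxypeptidase encoded by Cpb2 trims fibrin so that less plasminogen binds. None of the 3 was called in either model. Plg read 287, 1025 and 276 CPM in controls 101, 102 and 103, and 1545, 3403 and 718 CPM in No-Trp livers 105, 107 and 108. No-Trp mouse 108 lay below control 102, and the change was 1.86 ± 0.73 (adjusted p = 0.0991, edgeR). Serpinf2 differed by 0.70 ± 0.27 without overlap of the groups. Cpb2 was found at 168, 227 and 151 CPM in controls 101, 102 and 103, and 190.3, 235 and 184 CPM in No-Trp livers 105, 107 and 108, with the narrowest spread of the 38 genes among the No-Trp livers (highest over lowest 1.28), and its change was 0.18 ± 0.20. In the xenografts Plg stood at 12.2, 2.68 and 10.2 CPM in control xenografts 40, 41 and 43, and 11.3, 8.92 and 1.86 CPM in No-Trp xenografts 35, 36 and 37. Cpb2 was measured at 1.96, 1.36 and 2.18 CPM in control xenografts 40, 41 and 43, and 1.43, 1.35 and 1.01 CPM in No-Trp xenografts 35, 36 and 37. Neither gene separated the diets there.

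Fetuin-A (Ahsg) is a carrier of calcium phosphate in plasma, and vitronectin (Vtn) binds the inhibitor of plasminogen activators and the terminal complement complex. Ahsg had the highest level per kilobase of the 38 genes in the livers, with 877 CPM per kb in the controls and 5592 in the No-Trp livers. Ahsg read 1199.9, 3615 and 963 CPM in controls 101, 102 and 103, and 10086, 19789 and 6983 CPM in No-Trp livers 105, 107 and 108. It rose by 2.70 ± 0.67 on the log2 scale without overlap (adjusted p = 0.031, edgeR). Vtn was found at 712, 1696 and 684 CPM in controls 101, 102 and 103, and 1870.3, 2639.6 and 1079 CPM in No-Trp livers 105, 107 and 108. Control 102 lay above No-Trp mouse 108, and the change of 0.88 ± 0.48 was not called. In the xenografts Ahsg stood at 68.9, 16 and 66 CPM in control xenografts 40, 41 and 43, and 60.7, 49.2 and 18 CPM in No-Trp xenografts 35, 36 and 37. Vtn was measured at 15.6, 6.08 and 14.9 CPM in control xenografts 40, 41 and 43, and 13.5, 10.7 and 9.52 CPM in No-Trp xenografts 35, 36 and 37. Tumors 41 and 37 were the lowest of their groups for Ahsg and for Vtn.

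**Figure D2:**
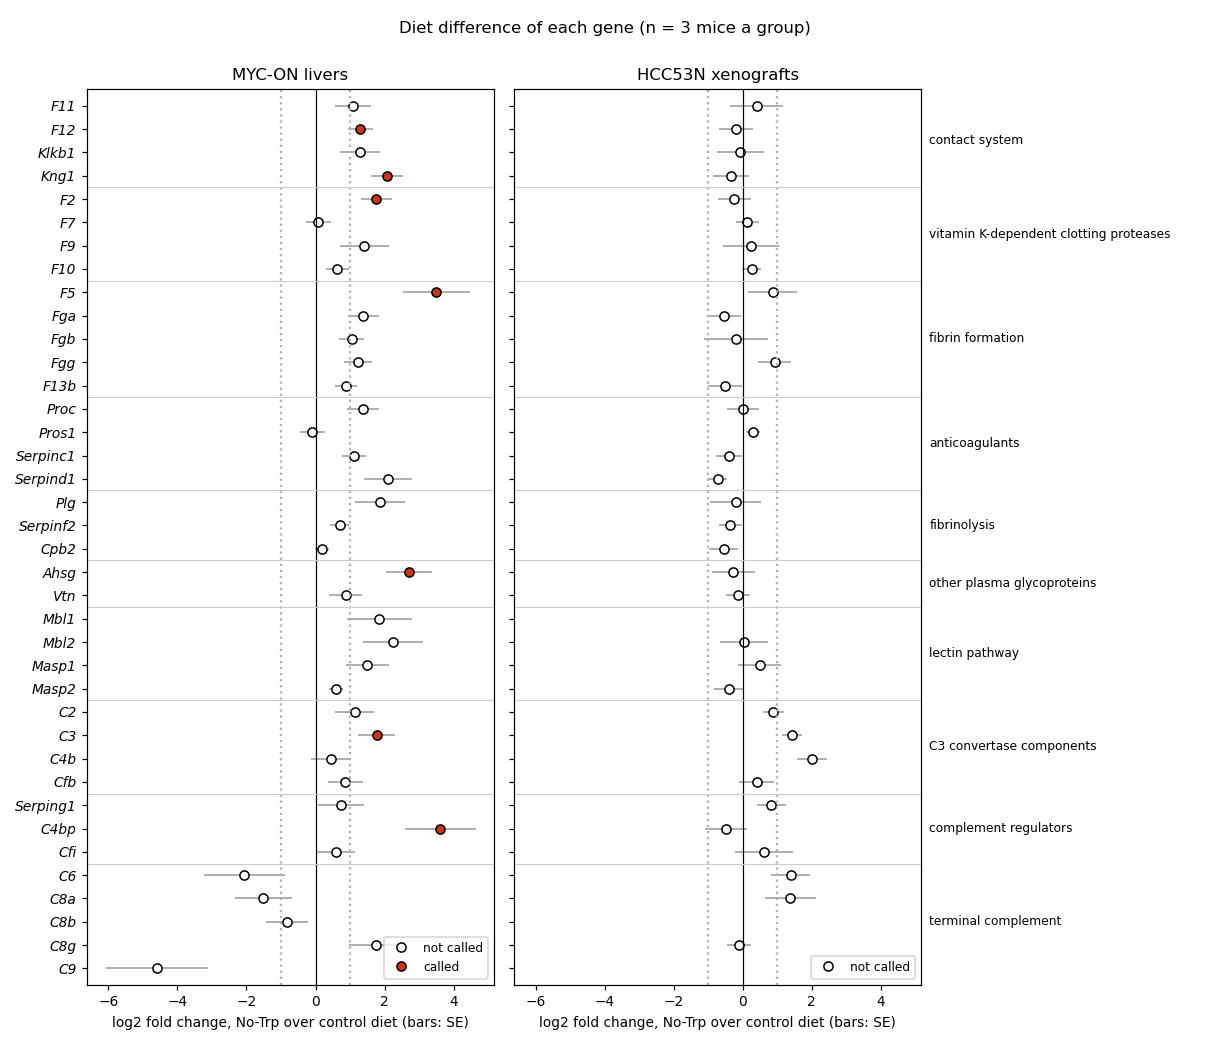
Log2 fold change of each gene on the No-Trp diet over the control diet, with its SE, in MYC-ON livers (left) and HCC53N xenografts (right). Filled points passed both thresholds, and dotted lines mark the threshold on size. In the livers 33 of 38 genes lie right of 0 and C6, C8a, C8b, C9 and Pros1 lie left of it, while in the xenografts 17 of 35 lie right of 0 and C3 and C4b lie farthest to the right.

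Mannose-binding lectins (Mbl1 and Mbl2) recognise sugars on microbes and activate the proteases Masp1 and Masp2, which cleave C4 and C2. None of the 4 was called in the livers and 3 of them had an unadjusted p under 0.05. Mbl2 read 17.3, 132 and 13.7 CPM in controls 101, 102 and 103, and 212, 349 and 191 CPM in No-Trp livers 105, 107 and 108. The No-Trp livers did not overlap the controls, and control 102 lay nearer to them than to the other controls. The change of 2.24 ± 0.88 was not called (adjusted p = 0.101, edgeR), and without control 102 it was 4.03 (adjusted p = 0.0013). Mbl1 differed by 1.84 ± 0.94 and by 3.81 without control 102. Masp2 was found at 88.7, 129 and 82.8 CPM in controls 101, 102 and 103, and 134, 173 and 138 CPM in No-Trp livers 105, 107 and 108. Its groups did not overlap, and the change of 0.59 ± 0.21 was below the size needed for a call. Of the exon length of Masp2, 54.9% overlaps Tardbp on the other strand, so its counts are uncertain. In the xenografts Mbl1 was too low to be tested, with 47 reads in all 6 tumors. Mbl2 stood at 1.66, 0.24 and 1.09 CPM in control xenografts 40, 41 and 43, and 1.32, 1.32 and 0.465 CPM in No-Trp xenografts 35, 36 and 37. Masp2 was measured at 1.37, 1.2 and 1.4 CPM in control xenografts 40, 41 and 43, and 1.25, 1.05 and 0.761 CPM in No-Trp xenografts 35, 36 and 37. Masp1 differed by 0.48 ± 0.62 there, and none was called.

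The C3 convertases are built from C4b and C2 in the classical and lectin pathways and from C3b and factor B in the alternative pathway. In the livers C3 rose and the others did not pass. C3 read 1949.7, 5829.9 and 2648 CPM in controls 101, 102 and 103, and 10153, 16798 and 8130.0 CPM in No-Trp livers 105, 107 and 108. The groups did not overlap, and the log2 fold change was 1.78 ± 0.54 (adjusted p = 0.0486, edgeR), the value of the 7 called genes closest to the threshold. C4b was found at 394, 1108 and 514 CPM in controls 101, 102 and 103, and 922, 1388 and 368 CPM in No-Trp livers 105, 107 and 108. No-Trp mouse 108 was below all controls and 107 above them, and the change was 0.44 ± 0.55. Reads may be shared between C4b and its near copy C4a, which stood at 11.1, 136 and 11.1 CPM in controls 101, 102 and 103, and 7.71, 5.15 and 7.09 CPM in No-Trp livers 105, 107 and 108. C2 and Cfb differed by 1.13 ± 0.56 and 0.87 ± 0.51, and 46.9% and 79.5% of their exon length lie in a readthrough gene model that the files do not count.

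In the xenografts this step held the 2 largest positive changes of the list. C3 was measured at 83.6, 50.2 and 83.8 CPM in control xenografts 40, 41 and 43, and 193, 139 and 262 CPM in No-Trp xenografts 35, 36 and 37. All No-Trp tumors were above all control tumors, and the change of 1.43 ± 0.29 missed the threshold (adjusted p = 0.0858, edgeR). C4b read 32.9, 78 and 28.8 CPM in control xenografts 40, 41 and 43, and 245, 125 and 194 CPM in No-Trp xenografts 35, 36 and 37. It had the largest change of the 35 genes tested, 1.99 ± 0.43, without overlap (adjusted p = 0.108, edgeR), and it was called by DESeq2 and when control tumor 41 was left out. C2 lay between 5.52 and 12.7 CPM in the controls and between 15.2 and 16.9 CPM in the No-Trp tumors, a change of 0.88 ± 0.30. In all, 4 of 35 members (C2, C3, C4b and C6) had every No-Trp tumor above every control tumor, which is 11.4% against 11.2% of all genes, and 1 (Serpind1) had the reverse, 2.86% against 11.3%. The diet difference of C4b in the livers minus that in the xenografts was -1.59 ± 0.76, which was not called (adjusted p = 0.176, edgeR). In the same tumors 5 of 8 adipocyte markers rose, with a sum of 19.4 to 63.9 CPM in control tumors and of 312 to 621 CPM in No-Trp tumors, and the defining marker Adipoq was at 0.782, 2.2 and 1.21 CPM in control xenografts 40, 41 and 43, and 35.55, 19.02 and 57.4 CPM in No-Trp xenografts 35, 36 and 37 (4.70 ± 0.55, adjusted p = 0.0299, edgeR). The 12 macrophage markers, of which none was called, summed to 505 to 784 CPM and to 686 to 1061 CPM, and the 10 stellate cell and fibroblast markers to 1113 to 4380 CPM and to 1782 to 5539 CPM. The part of these cells in the values of C3 and C4b was not tested.

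Soluble regulators limit the cascade: C1 inhibitor (Serping1) blocks C1r, C1s and the contact proteases, C4b-binding protein (C4bp) disassembles the classical convertase, and factor I (Cfi) cleaves C3b and C4b. C4bp showed the largest rise of the 38 genes in the livers. It was found at 26.9, 282 and 25.9 CPM in controls 101, 102 and 103, and 1222, 1813 and 962 CPM in No-Trp livers 105, 107 and 108. Mice 101 and 103 were almost equal, control 102 was far above them, and every No-Trp liver was above control 102. The log2 fold change was 3.61 ± 1.02 (adjusted p = 0.0435, edgeR), and it was 5.66 without control 102 (adjusted p = 0.000908). The call on C4bp was lost in 7 of 14 alternatives. Cfi stood at 116, 392 and 115 CPM in controls 101, 102 and 103, and 281, 454 and 182 CPM in No-Trp livers 105, 107 and 108, a change of 0.59 ± 0.56 with overlap of the groups. Serping1 differed by 0.74 ± 0.67. C4bp and its ligand C4b thus differed in the livers by 3.61 and 0.44 and in the xenografts by -0.49 and 1.99. In the xenografts C4bp was measured at 13.3, 2.96 and 9.71 CPM in control xenografts 40, 41 and 43, and 10.1, 5.71 and 3.0 CPM in No-Trp xenografts 35, 36 and 37. Cfi read 19.9, 11.9 and 3.4 CPM in control xenografts 40, 41 and 43, and 40.5, 8.24 and 6.47 CPM in No-Trp xenografts 35, 36 and 37, with xenograft 35 above all others. Serping1 differed by 0.83 ± 0.42, and none of the 3 was called.

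The pore-forming end of complement was the only step with a negative median in the livers, -1.52 over its 5 genes, and none of the 5 was called. C9, which polymerises into the pore, was found at 7.78, 285 and 9.85 CPM in controls 101, 102 and 103, and 3.71, 5.02 and 3.39 CPM in No-Trp livers 105, 107 and 108. All No-Trp livers were below all controls, and of the 38 genes C9 was the one with that order (2.63%, against 25.4% of all genes). Its change of -4.60 ± 1.48 was not called (adjusted p = 0.0599, edgeR). Without control 102 the change shrank to -1.12 and was called (adjusted p = 0.0389), so its size depended on mouse 102 and its direction did not. The fit of all 12 libraries also called C9 lower. C6, C8a and C8b had changes of -2.06 ± 1.18, -1.52 ± 0.82 and -0.83 ± 0.61, and each of them turned positive when control 102 was left out (0.83, 0.17 and 0.30). In mouse 102 these stood at 168, 391 and 225 CPM, above every other liver. In the other controls they stood between 6.63 and 9.73, 43 and 57.5, and 46.6 and 49 CPM, near or inside the No-Trp ranges. C8g, the lipocalin-like subunit of C8, had a positive change. It stood at 24.2, 101 and 12.9 CPM in controls 101, 102 and 103, and 137, 247 and 71.7 CPM in No-Trp livers 105, 107 and 108. Control 102 lay above No-Trp mouse 108, and the change of 1.76 ± 0.80 was not called (adjusted p = 0.143, edgeR). The 3 subunits of C8 are assembled in one protein, and their changes were -1.52, -0.83 and 1.76 with mouse 102 and 0.17, 0.30 and 3.04 without it. C8a and C8b lie 11.1 kb apart on chromosome 4, and C6 and C9 lie much farther apart, 1630.4 kb, on chromosome 15.

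**Figure D3:**
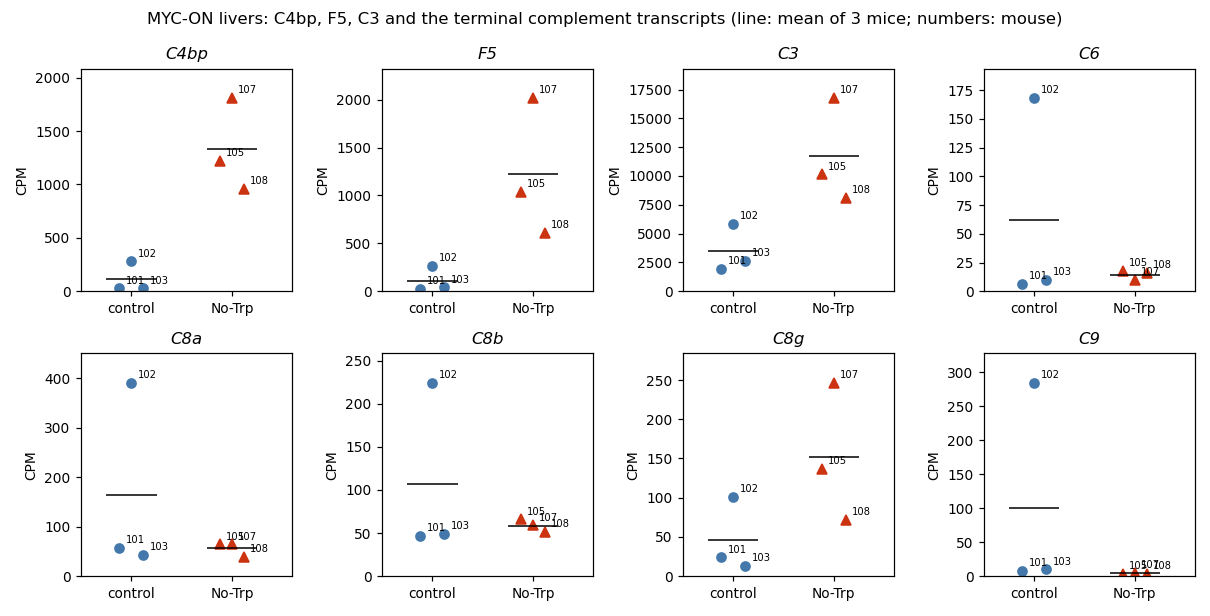
Level in CPM, on linear axes from 0, of C4bp, F5, C3 and the 5 terminal complement transcripts in each MYC-ON liver, with mouse numbers and the mean of 3 mice as a line. C4bp, F5 and C3 are above control 102 in every No-Trp liver, whereas for C6, C8a, C8b and C9 the control mean is carried by mouse 102.

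In the xenografts C8b and C9 were too low to be tested, with 71 and 58 reads in the 6 tumors. C9 was measured at 0.293, 0.12 and 0.182 CPM in control xenografts 40, 41 and 43, and 1.28, 0.338 and 0.0423 CPM in No-Trp xenografts 35, 36 and 37. C8g read 2.64, 2.56 and 3.52 CPM in control xenografts 40, 41 and 43, and 3.29, 2.77 and 2.16 CPM in No-Trp xenografts 35, 36 and 37. C6 and C8a differed by 1.39 ± 0.57 and 1.37 ± 0.74 and were not called. C6 lay between 0.44 and 2.49 CPM in the controls and between 3.34 and 4.1 CPM in the No-Trp tumors.

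Over the whole list, 15 of 38 genes (39.5%) had every No-Trp liver above every control liver, against 23.3% of all genes tested. Beside the 7 called genes these were Fga, Fgb, Fgg, Serpinc1, Serpinf2, Mbl1, Mbl2 and Masp2. Per kilobase of exon, Ahsg, C3, Fgg, Fga, Vtn and Fgb led the control livers, with 877, 676, 618, 565, 508 and 505 CPM per kb, and Masp1 was lowest with 2.81. On the No-Trp diet C4bp reached 198 and F5 165 CPM per kb, from 16.6 and 14.9.

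Other genes of the same pathways are set here beside the 9.28% of all genes called higher and the 7.27% called lower in the livers. Of 27 further clotting and fibrinolysis genes 2 rose and 1 fell in the livers, with a median log2 fold change of 0.11. Kng2, the near copy of Kng1, had the largest rise (2.17 ± 0.45, adjusted p = 0.023, edgeR), and reads of the 2 kininogens may be shared. A2m, the broad protease inhibitor alpha-2-macroglobulin, was the fall. It was found at 49.1, 273 and 117 CPM in controls 101, 102 and 103, and 15.5, 6.99 and 4.7 CPM in No-Trp livers 105, 107 and 108, a change of -3.98 ± 0.74 (adjusted p = 0.0202, edgeR). In the xenografts 1 of 26 rose, F13a1, the catalytic subunit of factor XIII, at 40, 42.8 and 33.4 CPM in control xenografts 40, 41 and 43, and 125, 154 and 81.4 CPM in No-Trp xenografts 35, 36 and 37. Its change was 1.61 ± 0.23 (adjusted p = 0.0366, edgeR). F13a1 is also known from macrophages. Of the 12 macrophage markers none was called in these tumors, 9 had a change above 0 and 3 below (their median was 0.48 on the log2 scale). The macrophage marker Cd163 differed by 2.29 and narrowly missed the threshold (adjusted p = 0.0551, edgeR). The part of macrophages in the value of F13a1 was not tested. Of 6 genes of the vitamin K cycle and of secretion 2 rose in the livers, Mcfd2 with the larger change (1.13 ± 0.25, adjusted p = 0.0254, edgeR), and none passed in the xenografts. Mcfd2 is part of the cargo receptor that carries factor V out of the endoplasmic reticulum.

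Of 32 further complement genes tested in the livers 5 rose and 1 fell, with a median of 0.20. Fcnb, a ficolin of myeloid cells, was the fall (-2.55 ± 0.65, adjusted p = 0.0326, edgeR). In the xenografts 1 of 28 rose, Fcna, a ficolin of liver and macrophages. Fcna stood at 14.5, 15.7 and 14.3 CPM in control xenografts 40, 41 and 43, and 45.7, 50.7 and 31.9 CPM in No-Trp xenografts 35, 36 and 37, a change of 1.50 ± 0.20 (adjusted p = 0.0259, edgeR). Cfd, which encodes factor D, had a larger change there, 4.80 ± 0.74, that was not called (adjusted p = 0.0551, edgeR). Its interaction was called, at -5.19 ± 0.85 (adjusted p = 0.00735, edgeR). Of 14 regulators of liver transcription 4 rose in the livers and none fell, with Nr1h4, the bile acid receptor FXR, having the largest rise (2.02 ± 0.29, adjusted p = 0.0146, edgeR). In the xenografts 1 of 12 fell and none rose. This was Cebpb, which encodes one of the C/EBP factors. Cebpb was measured at 30.6, 40.2 and 33.1 CPM in controls 101, 102 and 103, and 107, 179 and 96.8 CPM in No-Trp livers 105, 107 and 108. In the tumors it read 69.7, 76.8 and 70.8 CPM in control xenografts 40, 41 and 43, and 29.2, 36.6 and 27.1 CPM in No-Trp xenografts 35, 36 and 37. It rose by 1.90 ± 0.27 in the livers (adjusted p = 0.0142) and changed by -1.25 ± 0.16 in the xenografts (adjusted p = 0.0235), both by edgeR and without overlap of the groups, and the interaction was 3.12 ± 0.32 (adjusted p = 0.00165, edgeR).

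Between the models nearly all members were far lower in the tumors. On the control diet 37 of 38 were called lower in the xenografts (97.4%, against 20.2% of all 15472 genes tested) and none higher (against 23.3%). Pros1 was the exception at 0.88 ± 0.31. On the No-Trp diet 35 were called lower (92.1%, against 19.1%) and 1 higher (2.63%, against 24.5%), Pros1 at 1.29 ± 0.32 (adjusted p = 0.0037, edgeR). C6 and C9 were not called there, at -1.93 ± 1.01 and -2.85 ± 1.35. The most negative differences on the control diet were those of C9, C8a and C8b, at -8.97 ± 1.68, -8.76 ± 1.08 and -8.41 ± 0.79, to which control liver 102 contributes most of the liver mean. On the No-Trp diet Ahsg and Plg were the most negative, at -8.19 ± 0.91 and -8.01 ± 1.05.

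The levels left in the tumors fall into a shared low level and a set of genes above it. Expressed as a percentage of the mean of the 6 livers, 19 of the 38 genes were under 2% in every tumor, against 13.5% of 964 genes with at least 200 CPM in the livers. The 38 genes did not have to meet that minimum, and some, such as Mbl1 at 44.1 CPM, lay below it, so the 2 sets are unlike. The median over the 38 genes was 0.635% to 1.92% in the 6 tumors. The median of the 18 hepatocyte markers was 0.441% to 1.13%. In these tumors, from hosts described as female, the sum of 4 Y-linked genes (Ddx3y, Eif2s3y, Kdm5d and Uty) was 0.544% to 1.53% of that of the male livers. The Y-linked genes have relatives on the X chromosome with which reads may be shared, and the source of the low level was not tested. Prothrombin (F2), antithrombin (Serpinc1), fetuin-A (Ahsg) and plasminogen (Plg) belong to the low set, with medians of 0.809%, 0.747%, 0.773% and 0.79%. In the 2 tumors that were lowest for these genes, 41 and 37, 25 and 31 of the 38 genes were the lowest of their group. Above that level, 6 genes exceeded 5% in every tumor. They were F7 (6.46% to 12.6%), Masp1 (7.78% to 39.1%), Cfb (6.4% to 24.2%), C2 (8.97% to 27.6%), Serping1 (9.55% to 47.9%) and Pros1 (159% to 280.3%). Of these, factor B, C2 and C1 inhibitor are complement proteins that cells outside the liver also make. Whether this bears on their level in the tumors was not tested. The 13 genes between included C4b (3.68% to 31.4%), F11 (2.26% to 28.6%), Fgb (1.44% to 30.5%) and C3 (0.662% to 3.46%). The limits of 2% and 5% were set after the values were seen.

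**Figure D4:**
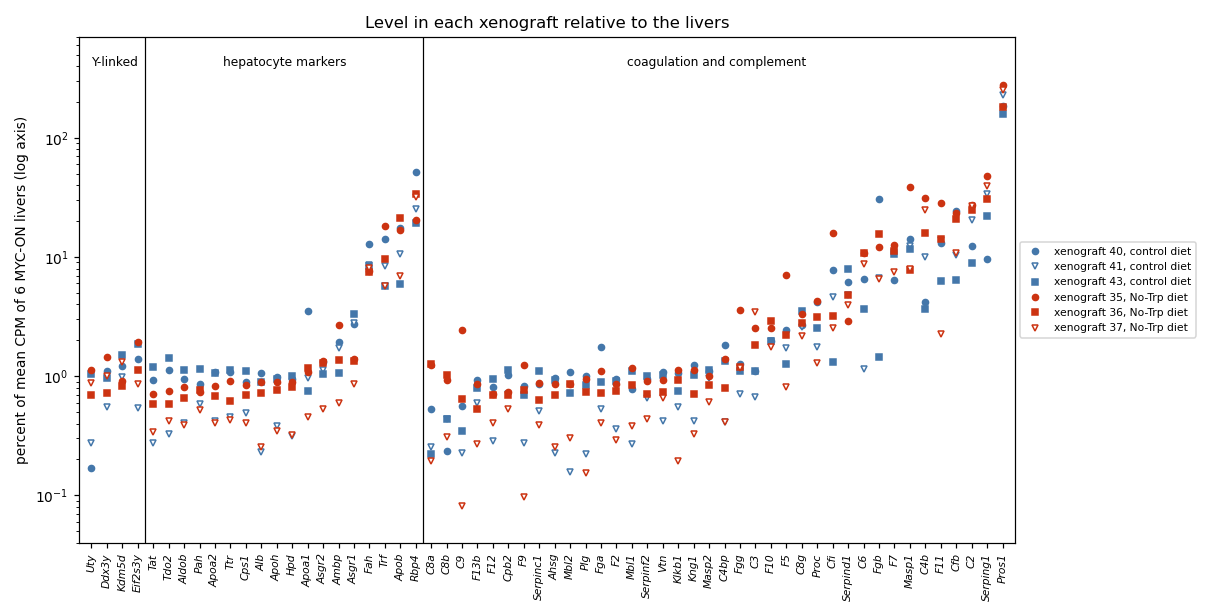
Level of 4 Y-linked genes, 18 hepatocyte markers and the 38 coagulation and complement genes in each xenograft, as a percentage of the mean of the 6 MYC-ON livers on a log axis, ordered by the median of the 6 tumors. Blue symbols are tumors on the control diet and red symbols tumors on the No-Trp diet, and open triangles mark tumors 41 and 37. The 19 clotting and complement genes under 2% in every tumor lie at the level of most hepatocyte markers, where tumors 41 and 37 are mostly lowest, and Pros1 is the single gene above 100% in every tumor.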

How the data were processed

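Polyadenylated RNA of 6 livers and 6 xenografts was sequenced, 1 library per mouse. The deposited files hold raw counts of reads for 24062 gene symbols, made by the authors with Trim Galore, STAR 2.7.2b (mm10) and HTSeq. The strand setting and the rule for overlapping genes are not given in the sources used here, so overlapping genes and near copies hold uncertain counts. Reads that the counting assigned to no gene, 24.7% to 39.4% of a library, were left out. Depth was 14660963 to 26085349 reads on genes. The estimated spread between mice over all genes was 31.6% in the livers and 28.7% in the xenografts.

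Counts were tested with edgeR 4.0.16 in R 4.3.3 (TMM, filterByExpr, robust glmQLFit, glmQLFTest, two-sided, Benjamini-Hochberg over all genes tested), within each model for diet, and over all 12 libraries for the interaction and for xenografts against livers. The SE is the size of the log2 fold change divided by the root of F. The p-values measure the spread between these mice. All 38 genes are accounted for. Values in every mouse are given for the gene with the largest and the gene with the smallest liver change of each step and for genes called in the xenografts or by the interaction, and from other lists the largest called rise and fall, of which 1 is not reported here. Other genes given with such values were chosen after the values were seen (Fgb, C2 and C6 in the xenografts, C6, C8a and C8b in the livers, C4a, Cebpb in the livers, and Adipoq). The members and lists were chosen with earlier results of these data known. Each fit was run for 1 of its comparisons on simulated counts with known changes. Their spread between mice was smaller than that estimated here, so this does not check the calls in these data. Gene models are GENCODE M21, to which 98.5% of symbols matched (950 through an older symbol). Alternatives were DESeq2 1.42.0, RLE factors, library totals, no filter, a minimum of 10 counts in each library, a covariate for resubmission, Rn45s left out, no fold change threshold, other sets of libraries in the fit, and leaving out each library.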

Additional observations from a re-analysis of the deposited data

Results flagged for a closer look

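The diet difference was called as unlike between livers and xenografts for 2 of the 38 genes by the interaction term, both higher in the livers (5.26%, against 6.01% of all genes tested). For Kng1, high-molecular-weight kininogen, the log2 difference of 2.37 separates a rise of 2.07 ± 0.46 in the livers from -0.34 ± 0.52 in the xenografts, with 3 of 3 No-Trp livers above all controls. For Serpind1, heparin cofactor II, the log2 difference of 2.78 separates 2.09 ± 0.70 in the livers from -0.72 ± 0.27 in the xenografts, neither of them called alone. Over 19 alternatives the difference ranged from 1.92 to 2.86 for Kng1, which was called in 9, and from 2.23 to 3.80 for Serpind1, which was called in 8. Leaving out any one of livers 101, 103, 105 and 107 or of xenografts 36, 37, 40 and 43 left no member called higher. Over all genes those fits called 449 to 785 higher, against 930 with all libraries. Without control liver 102 the count was 11, against 8.75% of all genes in that fit. The models differ in sex as described, strain, host, site and driver, which cannot be told apart.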

How the results depend on the processing

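The 7 members called higher in the livers became 16 with DESeq2, 3 with library totals, 11 with resubmission as a covariate, and 0 to 25 when each mouse was left out in turn. Over all genes 1311 of 14122 became 1646 of 18881, 732 of 14122, 1399 of 14122 and 7 to 1959, in the same order. No member was called lower, except 1 (C9) in one fit over all libraries, and 0 to 1 when each mouse was left out. In the xenografts 2 members were called higher with DESeq2 and 0 to 1 when each tumor was left out, and none lower in any setting. Over all genes 250 of 19524 and 7 to 35 were called higher there. The interaction called 2 higher as reported, 10 with DESeq2, 4 with RLE factors, 4 of 31 tested with at least 10 counts in every library, 1 with library totals, 0 with no filter, 7 with resubmission as a covariate and 0 to 11 with single libraries left out. Over all genes it called 930 of 15472, 1473 of 20086, 1108 of 15472, 920 of 12101, 437 of 15472, 804 of 20086, 1087 of 15472 and 449 to 1386 higher, in the same order. It called 0 to 1 members lower with single libraries left out. On the control diet 1 member (Pros1) was called higher in the xenografts with library totals, with resubmission as a covariate, with no fold change threshold, and 0 to 1 members were when each library was left out in turn. The counts called lower in the xenografts, and all counts on the No-Trp diet between models, stayed within 1.5 times. Library totals shifted all genes tested to a median of -0.30 in the livers and to 0.11 in the xenografts, and with them F7 was at -0.25 and Cpb2 at -0.13 in the livers, both close to that shift, and C8g, Klkb1 and Proc at 0.007, 0.056 and 0.128 in the xenografts. Proc, at -0.002 as reported in the xenografts, was also at 0.005 with DESeq2, 0.008 with RLE factors, 0.008 with Rn45s left out, 0.015 with at least 10 counts in every library, 0.009 with no filter and 0.017 in one fit over all libraries. With resubmission as a covariate the xenograft values of F9, Mbl2, Cfb, Cfi and C8g were -0.26, -0.70, -0.43, -0.14 and 0.031. Leaving out single mice also turned the direction of genes that were not called as reported. In the livers the ranges were -0.26 to 0.39 for F7, -0.38 to 0.22 for Pros1, -0.05 to 0.98 for C4b, -2.60 to 0.83 for C6, -1.99 to 0.17 for C8a and -1.20 to 0.30 for C8b. In the xenografts they were -0.43 to 0.92 for F11, -0.57 to 0.12 for F12, -0.45 to 0.37 for Klkb1, -0.81 to 0.012 for Kng1, -0.58 to 0.11 for F2, -0.086 to 0.32 for F7, -0.43 to 0.74 for F9, -0.25 to 1.34 for F5, -0.92 to 0.037 for Fga, -0.73 to 1.47 for Fgb, -0.37 to 0.40 for Proc, -0.64 to 0.25 for Plg, -0.70 to 0.10 for Ahsg, -0.47 to 0.078 for Vtn, -0.45 to 0.65 for Mbl2, -0.71 to 0.85 for Masp1, -0.69 to 1.22 for Cfi and -0.24 to 0.055 for C8g. The cause was not tested. No paired analysis was possible because the groups share no mouse numbers. Depth limits the xenograft values of Mbl1, C8b and C9, with at most 35 reads in a tumor.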
